A study of Sus scrofa with 50 samples.

Results

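The subject is a set of 10 genes of the T cell receptor complex and its signalling, followed across 5 organs of Korean minipigs. The members are the receptor chains CD3D, CD3E, CD3G and CD3Z, the surface molecules CD2, CD5, CD28 and CD8A, and the signalling proteins LCK and UBS3B. Each was found by its Swiss-Prot entry name, the best protein match that the authors' annotation gives a transcript, and its value is the sum of TPM (a transcript's length-corrected share of a library, scaled to the same total in each) over the transcripts with that name. All 10 were measured, among 35133 genes in all, of which 14532 are such entries and the rest transcripts without a match. The samples were heart, kidney, liver, lung and spleen from 10 animals, giving 50 libraries. The ET type comprised S0235, S0242 and S0276, along with S0309 and S0326. The L type comprised S0349, S0355 and S0377, along with S0384 and S0385. Each animal gave every organ, so each group of type and organ holds 5 animals. The labels name the breed, the type, the organ and the animal, and no treatment or engineered allele. Age and sex are not given in the sources used here.

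T cells recognise antigen through a receptor whose variable chains have almost no signalling tail of their own. The CD3 gamma, delta and epsilon chains and the zeta chain travel with them and carry the tyrosine motifs that LCK phosphorylates, after which ZAP70 and the adaptor LAT pass the signal on. CD8 and CD4 bring LCK to the receptor, CD2 and CD28 add adhesion and costimulation, and CD5 and the phosphatase UBS3B restrain the signal. The spleen holds large T cell zones, while in heart, kidney and liver T cells are scattered among the cells of the organ. In a whole organ, fewer T cells and less RNA per T cell cannot be told apart, and this holds for every level given here.

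The transcripts were assembled from the minipigs' own reads, so each member rests on what was assembled. CD3D, CD3E and CD3G were each 1 transcript, and these matched the pig proteins at 99.5 to 100% identity. CD28 was 1 transcript that matched the bovine protein at 83.2%. LCK had 2 transcripts, and 99.6% of its TPM lay on the one assembled from ET-type spleen. CD8A had 2 transcripts whose match, to the dog protein, was 56.0 to 60.4% identical. CD2 had 5 transcripts at 50.9 to 72% identity, and CD5 had 4 at 62.5 to 84.4%. UBS3B had 2 transcripts, and the one assembled from spleen, with 55.2% of its TPM, matched only residues 598 to 638 of the mouse protein. CD3Z had 3 transcripts, all matched to the sheep zeta chain. A TPM level of a member therefore depends on how completely it was assembled, and comparisons between members carry that limit.

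In the RefSeq annotation of Sscrofa11.1 the genes of the CD3 epsilon, delta and gamma chains lie side by side on chromosome 9. CD3E spans 9:45619730-45633972, CD3D 9:45640475-45644153 and CD3G 9:45645243-45656779, so that 6502 bases separate CD3E from CD3D and 1089 bases separate CD3D from CD3G. The gene of UBS3B, UBASH3B, lies on the same chromosome at 9:49630678-49772348. The zeta chain gene, CD247 by its current symbol, is at 4:83494266-83586887, and CD2 is on the same chromosome at 4:103963802-103976971. CD5 lies at 2:10648973-10673479, CD8A at 3:57999228-58029768, LCK at 6:88719886-88745922 and CD28 at 15:107128103-107155431.

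The kidney library of ET-type S0235 went against its label. Its 4 kidney marker genes (UROM, AQP2, CUBN and S12A1) summed to 0.605 TPM, against 762 to 6310 TPM in the other 9 kidneys. Its 7 B cell genes summed to 691 TPM, against 9.18 to 18.0 TPM in the other kidneys, and its 4 genes of lymphoid stroma to 3412 TPM, against 39.9 to 468 TPM. CD3G was 795 TPM there, CD3E 553 TPM, CD3Z 511 TPM and CD3D 174 TPM. CD2 was 472 TPM, CD5 257 TPM, LCK 249 TPM, CD8A 102 TPM, CD28 13.8 TPM and UBS3B 7.54 TPM. All but UBS3B were above the highest spleen, by 2.33-fold (CD3Z) to 10.6-fold (CD3G), while UBS3B was 0.552 of the highest spleen. The 3 spleen markers (TLX1, ITAD and CD5L) summed to 16.4 TPM there, 14.3 TPM of it from CD5L, against 698 to 1148 TPM in spleens. CD5L was also high in liver (279 to 917 TPM), so livers, at sums of 280 to 918 TPM, overlapped spleens on this list. TLX1 (54.2 to 111 TPM) and ITAD (482 to 754 TPM) were high in spleens only, reaching at most 0.982 and 2.98 TPM elsewhere. In the other 49 libraries the marker genes of the labelled organ were present, with sums from 698 TPM in spleen to 196689 TPM in liver. The library at odds is called the library labelled kidney of S0235 below, and results that it moves are given with and without it. The sequencing depth of the libraries is not known from TPM, so no counting interval is attached to any value.

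The receptor chains were highest in spleen, then lung, and lowest in heart or liver. CD3E, the chain on which the complex is assembled, had 17.2, 59.8 and 189 TPM as its lowest, median and highest value in spleen, and 3.39, 11.3 and 36.1 TPM in lung. In the 9 other kidneys its median was 2.0 TPM with a range of 1.61 to 12.8 TPM, in liver 1.08 TPM (0.183 to 2.76) and in heart 0.547 TPM (0.141 to 1.20). The spleen and lung values of CD3E overlapped, since the highest lung stood above the lowest spleen, but the means differed by 2.35 ± 0.49 (SE) on the log2(TPM + 1) scale (limma, adjusted p = 5.99e-05). CD3G had 6.94, 25.6 and 75.1 TPM in spleen and 3.67, 8.03 and 21.9 TPM in lung. CD3D had 1.51, 6.94 and 29.7 TPM in spleen and 1.28, 2.07 and 5.86 TPM in lung. Medians of CD3G were 2.10 TPM in kidney, 0.823 TPM in liver and 0.826 TPM in heart, and those of CD3D were 0.282, 0.274 and 0.151 TPM.

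The surface molecules followed the same order. CD2, which binds CD58 on the partner cell, had a median of 32.7 TPM in spleen (10.5 to 101), 10.5 TPM in lung (2.91 to 25.6) and 3.97 TPM in the other kidneys (1.22 to 37.3). Its medians were 1.54 TPM in liver and 0.808 TPM in heart. CD5, a scavenger receptor family member on T cells and on a subset of B cells, had medians of 16.8 TPM in spleen, 5.97 TPM in lung, 1.63 TPM in kidney, 0.533 TPM in liver and 0.232 TPM in heart. CD8A, which marks cytotoxic T cells and in pigs also other lymphocytes, had 7.29 TPM in spleen, 1.70 TPM in lung, 0.343 TPM in kidney, 0.301 TPM in liver and 0.162 TPM in heart. CD28 was the lowest member in every organ, with medians of 0.394 TPM in spleen, 0.223 TPM in lung and at most 0.0562 TPM in the other organs. It stayed under the mean of 1 TPM that a gene needed to enter the comparisons of organs, and it entered those of type in kidney only, through the library labelled kidney of S0235.

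The intracellular members parted. LCK, the kinase that starts the signal, had medians of 22.3 TPM in spleen (9.80 to 63.3), 4.79 TPM in lung (1.70 to 12.8), 1.77 TPM in kidney, 0.986 TPM in liver and 0.576 TPM in heart. UBS3B, which removes phosphate from ZAP70 and related kinases, was spread more evenly, with medians of 5.14 TPM in spleen (0.535 to 13.7), 3.34 TPM in lung (0.0961 to 19.5), 1.18 TPM in kidney, 0.823 TPM in liver and 1.0 TPM in heart. Its highest value of all 50 libraries was in a lung.

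**Figure D1:**
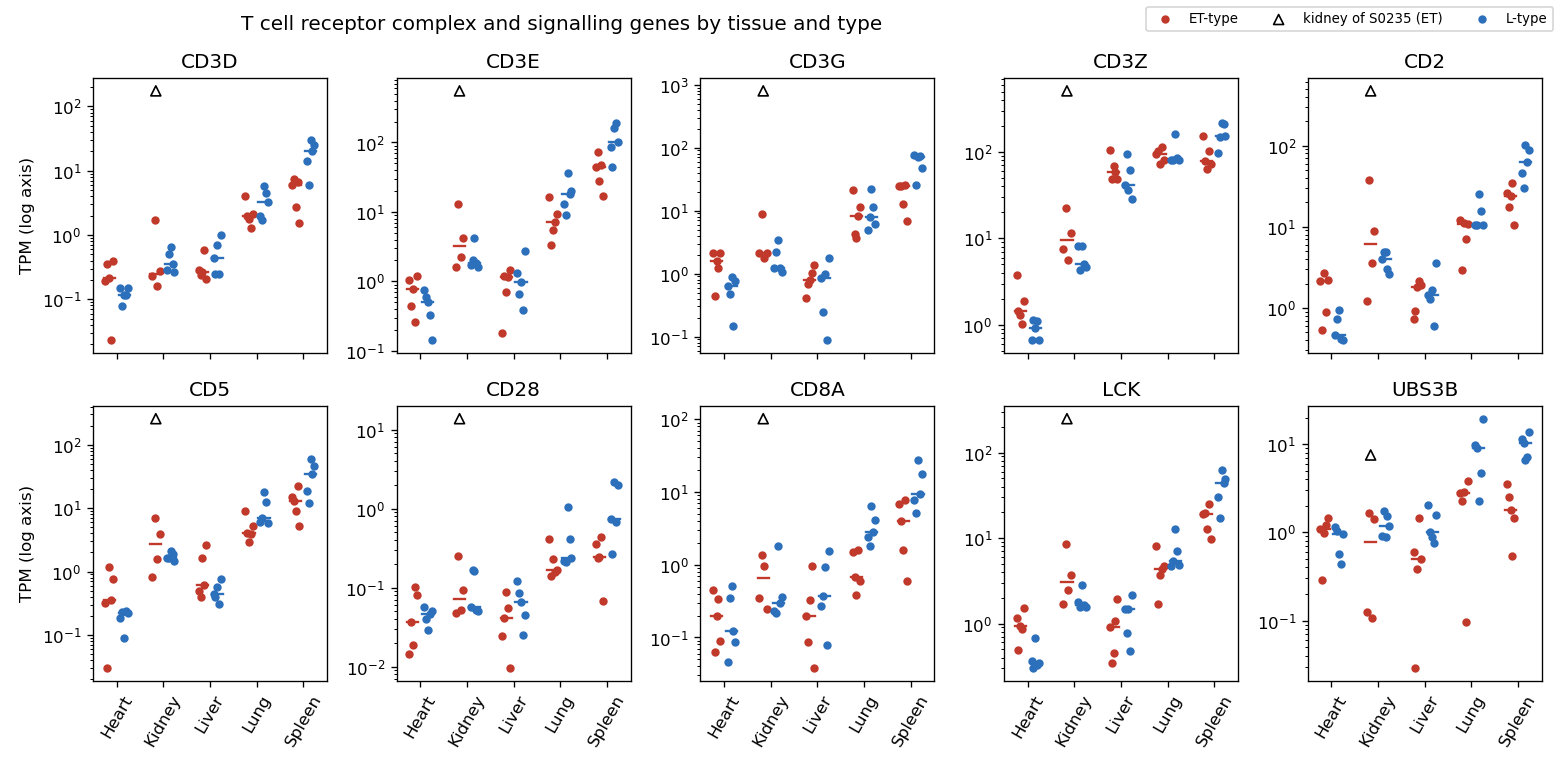
TPM of the 10 members (log axis) in each organ, with ET-type animals in red, L-type animals in blue, a short line at each group's median and the library labelled kidney of S0235 as an open triangle left out of the median. CD3Z stands out in liver, at 29.0 to 106 TPM, and the open triangle lies above every spleen for all members but UBS3B.

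Organs were compared in a limma fit on log2(TPM + 1) over all 50 libraries, in which a gene was called at a Benjamini-Hochberg adjusted p below 0.05 over 29796 genes. This fit took the libraries as independent and did not use the pairing of organs by animal. The 9 members tested were all called lower in heart than in spleen, against 40.1% of all genes, and all lower in liver than in spleen (40.2% of all genes) and in kidney than in spleen (17.8%). In lung against spleen 7 of 9 were called lower, against 11.5% of all genes. CD3Z (-0.35 ± 0.39, adjusted p = 0.444) and UBS3B (-0.10 ± 0.28, adjusted p = 0.779) were the exceptions. All 9 were called lower in heart than in lung (70.2% of all genes), 8 in liver than in lung (68.2%) and 7 in heart than in kidney (54.8%). Without the library labelled kidney of S0235 the last count was 6, against 53.6% of all genes, since CD8A went from -0.97 (adjusted p = 0.0468) to -0.38 (adjusted p = 0.200). Kidney against liver gave 5 called higher (53.7%) and CD3Z called lower (12.8%). Heart and liver differed in CD3Z only, lower in heart, against 27.2% of all genes called lower. The other 8 lay between -0.38 and 0.15 there on the log2 scale.

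With TPM as deposited, the order of kidney and lung turned on the library labelled kidney of S0235. With it, 2 of 9 members were called lower in kidney than in lung, CD3Z and UBS3B, against 42.7% of all genes, and without it all 9 were, against 46.3% of all genes. The difference of CD3E was -0.97 ± 0.49 (adjusted p = 0.0884) with it and -1.65 ± 0.29 (adjusted p = 2.89e-06) without it. The scale mattered as well. With that library in, median-ratio rescaling turned kidney minus lung to 0.16 for CD2, 0.064 for CD8A and 0.21 for LCK, none of them called. No rescaled fit was run without that library. Without that library the order spleen, lung, kidney, liver, heart held for CD3D, CD3E, CD2, CD5, CD8A and LCK by their mean log2 values. Lung was called below spleen for each of these (12.1% of all genes were called so), and kidney below lung, whereas liver and heart did not differ beyond their spread, with adjusted p from 0.221 for CD5 to 0.499 for CD8A. Kidney was called above liver for CD3E, CD2, CD5 and LCK (52.5% of all genes), but not for CD3D (adjusted p = 0.872) and CD8A (adjusted p = 0.614). For CD3G and UBS3B heart stood above liver, by less than the spread.

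CD3Z, the zeta chain, had a pattern of its own. In liver its lowest, median and highest values were 29.0, 54.1 and 106 TPM, where CD3E did not pass 2.76 TPM in any animal. In lung it had 72.9, 83.6 and 162 TPM and in spleen 63.6, 126 and 219 TPM, so that lung and spleen overlapped widely. The other kidneys had 4.37 to 22.8 TPM and hearts 0.660 to 3.82 TPM, and no heart reached the lowest kidney. Without the library labelled kidney of S0235 the order spleen, lung, liver, kidney, heart had a called step at each place but the first (lung against spleen, adjusted p = 0.141). The step from lung to liver was -0.74 ± 0.39 with all 50 libraries and was not called (adjusted p = 0.0787), and after median-ratio rescaling it turned to 0.41. Of all genes 69.4% were called lower in liver than in lung, 13.9% lower in kidney than in liver, 53.6% lower in heart than in kidney and 28.6% lower in heart than in liver. Every liver held more CD3Z than any heart or any of the 9 other kidneys. The ratio of CD3Z to CD3E was 10.5 to 579 in liver with a median of 46.1, against 4.16 to 30.8 in lung and 1.09 to 4.25 in spleen. With 0.1 TPM added to both, it was higher in liver than in spleen in 10 of 10 animals, by 4.86 ± 1.35 (SD) on the log2 scale (exact sign-flip test, adjusted p = 0.00517). The liver with the highest CD3Z, 106 TPM in S0235, had the lowest CD3E, 0.183 TPM, and the liver with the lowest CD3Z, 29.0 TPM in S0385, had the highest CD3E, 2.76 TPM.

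Nearly all of this signal came from transcripts that cover only the rear of the protein. A transcript assembled from L-type backfat (1576 bases) and another from L-type brain (1519 bases) both matched the sheep zeta chain from residue 55 onward, at 90.8% identity, and not the part before it. They carried 44.3% and 54.3% of the CD3Z signal over 49 libraries. The transcript assembled from L-type lymph node matched residues 1 to 112 at 90.2% and carried 1.35%. In liver the lymph node transcript had 0.119 to 0.655 TPM and the other pair summed to 97.3 to 810 times as much. In lung the pair summed to 89.4 to 232 times the lymph node transcript. In spleen the pair summed to 29.7 to 136 times the lymph node transcript, at 0.532 to 6.22 TPM. The lymph node transcript alone had medians of 1.79 TPM in spleen, 0.749 TPM in lung, 0.263 TPM in liver, 0.151 TPM in kidney and 0.0364 TPM in heart. Spleen and lung were thus highest for this transcript as for CD3E, while liver stood above kidney, unlike for CD3E. Whether the backfat and brain transcripts come from the zeta chain gene was not tested in any organ, since the match covers only part of each.

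The backfat and brain transcripts were shared out by animal. In S0242, S0349 and S0384 the backfat transcript held 99.5 to 100% of the pair in each of the 5 organs. In S0235, S0326 and S0355 it held at most 0.796% in each organ. The other 4 animals had both, with medians over organs of 32.8% (S0309), 37.3% (S0377), 41.3% (S0385) and 41.4% (S0276). Within these 4, hearts gave the extremes, 0% in S0309 and 89.6% in S0377, at pair sums of about 1 TPM or less. By type, 1 ET-type and 2 L-type animals had the backfat transcript nearly alone, 2 and 1 the brain transcript nearly alone, and 2 and 2 both. The library labelled kidney of S0235 had 485 TPM of the brain transcript and 0.539 TPM of the backfat one, which is the pattern of that animal's 4 other organs and of 2 other animals.

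**Figure D2:**
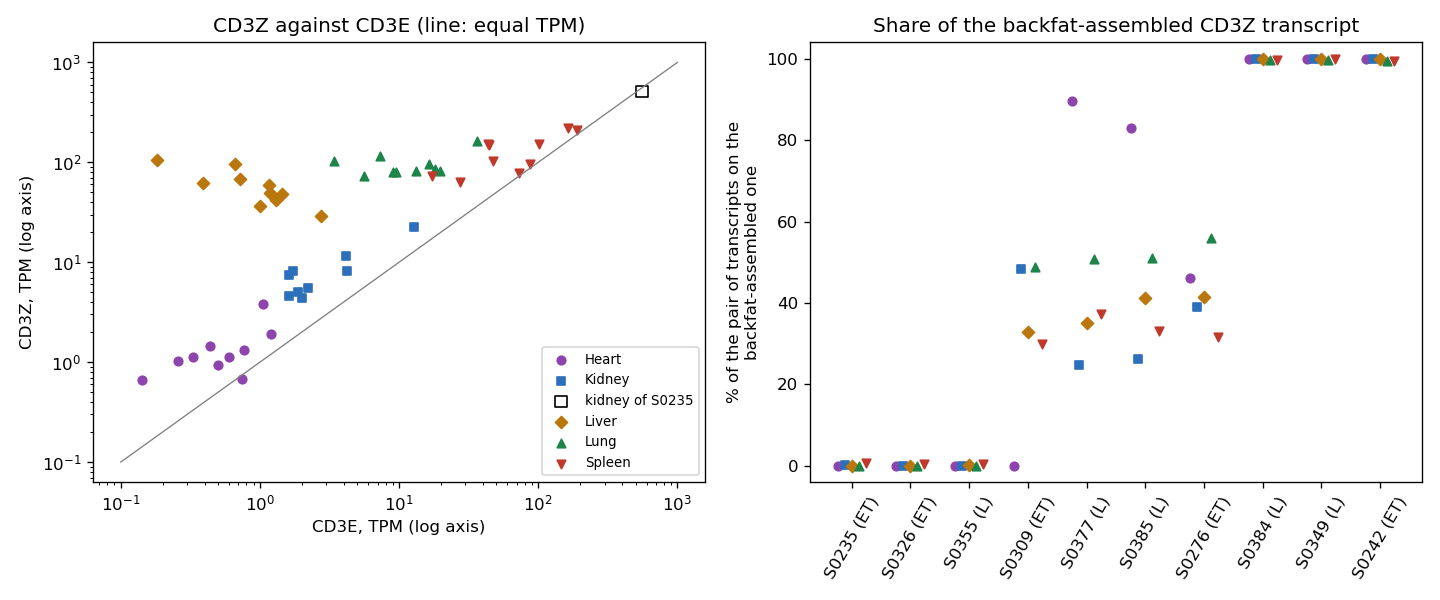
On the left, CD3Z against CD3E in TPM (log axes) for the 50 libraries, with a line at equal values, and on the right, for each animal and organ, the percentage of the backfat and brain transcripts' sum that lay on the backfat transcript. Livers lie far above the line at low CD3E, and the animals fall near 0%, near 100% or between, with a heart at the extreme in 3 of those between.

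Ratios to CD3E describe how the make-up of the set differs between organs, with 0.1 TPM added to each value. In heart and liver CD3E itself was so low that this addition weighs on the ratios, so lung and spleen are set side by side. CD3Z was 7.28 times CD3E in lung and 1.85 times in spleen by the medians. The lung ratio was higher in 10 of 10 animals (mean log2 difference 2.10 ± 1.16 SD). The exact sign-flip test over animals gave an adjusted p of 0.00517 over 90 tests, from the smallest unadjusted p that 10 pairs allow (0.00195). In both organs the CD3Z ratio rests on the backfat and brain transcripts, whose origin was not tested. UBS3B had median ratios of 0.466 in lung and 0.0763 in spleen, higher in lung in 10 of 10 animals (2.24 ± 1.09). CD28 had 0.0315 and 0.0100, higher in lung in 9 of 10 (1.79 ± 1.08, adjusted p = 0.00857, exact test). CD5 differed by 0.95 ± 0.93 (9 of 10 animals, adjusted p = 0.0141, exact test).

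Smaller differences of the same sign were called for CD3D (0.79 ± 0.94, 7 of 10 animals, exact test, adjusted p = 0.0447), CD8A (0.69 ± 0.78, 9 of 10, adjusted p = 0.0314) and CD2 (0.68 ± 0.71, 9 of 10, adjusted p = 0.0288). These 3 lost their call in 6 or 7 of the 12 or 13 alternatives in which they were recomputed. LCK was not called, with median ratios of 0.501 in lung and 0.415 in spleen (0.20 ± 0.55, 7 of 10 animals, exact test, adjusted p = 0.359). CD3G was not called (0.62 ± 0.92, 8 of 10 animals, exact test, adjusted p = 0.0989). As each ratio has CD3E below the line, a library with little CD3E moves all of them together.

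**Figure D3:**
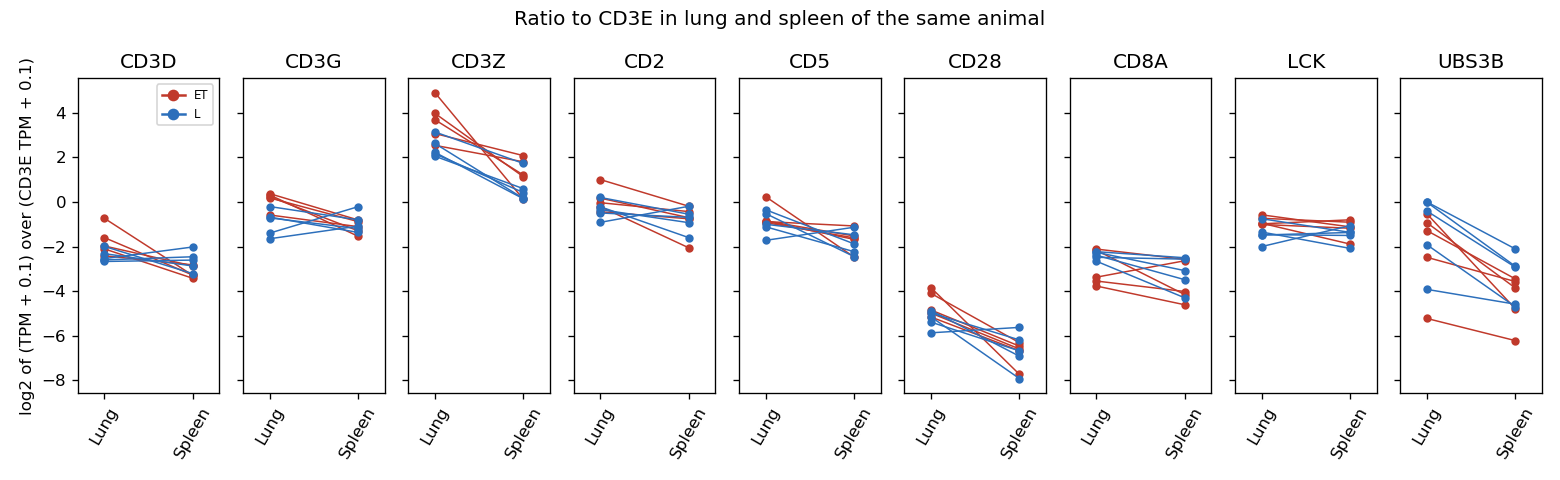
Log2 ratio of each member to CD3E (0.1 TPM added) in lung and spleen, a line for each animal, red for ET and blue for L. All lines fall from lung to spleen for CD3Z and UBS3B, while those of LCK go both ways, lower in spleen in 7 of 10 animals.

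Pooled over organs, the members compared moved together from library to library, apart from CD3Z and UBS3B. After each organ's mean was removed, log2(TPM + 1) of LCK had the highest correlation with CD3E of 13643 entries compared over 49 libraries (Pearson r = 0.894). CD3G had r = 0.848, CD3D 0.841, CD2 0.837, CD5 0.817 and CD8A 0.772. CD3Z had r = 0.448 at rank 782 and UBS3B 0.438 at rank 855. CD28 was under the level needed to be compared. The entries outside the set nearest to CD3E were TCC3, PVRIG, SEPT1, ZAP70, CD6, TRAR1, SIT1, ITB7, ACAP1 and SASH3, with r from 0.885 down to 0.838. ZAP70 is the kinase next in the receptor's path, CD6 a relative of CD5, SIT1 an adaptor that dampens the receptor's signal, and PVRIG an inhibitory receptor of lymphocytes. All libraries of an animal and the scale of TPM within a library are shared by these points, so the values are a description. The difference between types was left in, and no organ was taken alone.

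L-type S0377 stood at the top. It had the highest value of the 10 animals for 9 of 10 members in lung, all but UBS3B, and for 7 of 10 in spleen. Its lung had 36.1 TPM of CD3E, 21.9 TPM of CD3G, 12.8 TPM of LCK and 6.37 TPM of CD8A. In liver it led for none, and there L-type S0385 was highest for 6 of 10. ET-type S0326 was lowest of all 10 spleens for 8 members, with 17.2 TPM of CD3E, while its heart was the highest of the 10 for 4. ET-type S0276 had the highest CD3E of the other kidneys, 12.8 TPM, with 37.3 TPM of CD2.

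**Figure D4:**
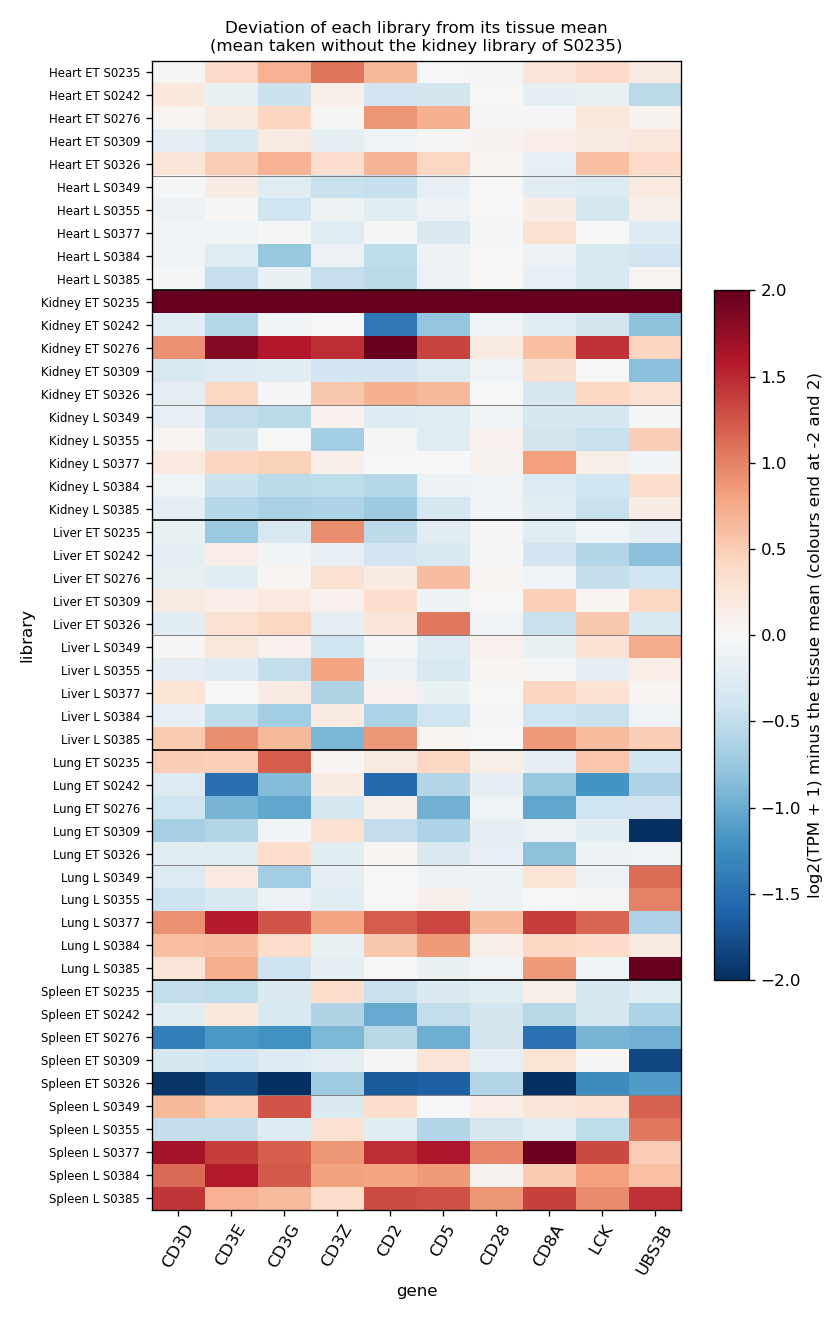
Log2(TPM + 1) of each member in each of the 50 libraries minus the mean of its organ, in red above and blue below, with colours ending at -2 and 2. The library labelled kidney of S0235 is at the red end for all 10 members, the lung and spleen of S0377 are red in most, and the spleens of ET-type S0276 and S0326 are blue throughout.

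In spleen the T cell genes were lower in ET-type than in L-type animals. CD3E was 43.6, 72.3, 27.5, 47.3 and 17.2 TPM in the ET-type spleens of S0235, S0242, S0276, S0309 and S0326. It was 87.1, 44.6, 164, 189 and 102 TPM in the L-type spleens of S0349, S0355, S0377, S0384 and S0385. The groups overlapped through L-type S0355, which stood under 2 of the ET-type animals. On the log2(TPM + 1) scale the difference of ET minus L was -1.46 ± 0.42 (SE, limma, adjusted p = 0.0344). CD3D was 1.51 to 7.29 TPM in ET-type and 6.0 to 29.7 TPM in L-type spleens (-1.76 ± 0.43, adjusted p = 0.0270), and CD3G was 6.94 to 25.7 and 25.5 to 75.1 TPM (-1.62 ± 0.38, adjusted p = 0.0266). For both of these the groups overlapped only between the lowest L-type animal, S0355, and the highest ET-type ones.

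Of the 9 members tested in spleen 8 were called lower in ET-type animals, against 21.5% of all genes called lower. CD3Z fell least among the called (-0.82 ± 0.27, adjusted p = 0.0465), from a mean of 166 ± 49.8 TPM (SD, n = 5) in L-type to 94.3 ± 35.7 TPM in ET-type spleens. CD2 differed by -1.48 ± 0.36 (adjusted p = 0.0270), CD8A by -1.54 ± 0.51 (adjusted p = 0.0491) and LCK by -1.15 ± 0.34 (adjusted p = 0.0366). CD5 was -1.26 ± 0.43 with an adjusted p of 0.0533. CD28, which did not enter the test, was 0.0685 to 0.435 TPM in ET-type and 0.268 to 2.14 TPM in L-type spleens.

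UBS3B was the member whose spleen groups did not overlap. It was 3.57, 2.50, 1.79, 0.535 and 1.47 TPM in the ET-type spleens of S0235, S0242, S0276, S0309 and S0326, and 11.3, 10.2, 6.71, 7.15 and 13.7 TPM in the L-type spleens of S0349, S0355, S0377, S0384 and S0385. Its lowest L-type value was above its highest ET-type value, a separation in this direction that 15.5% of all genes tested in spleen had. The difference was -1.91 ± 0.30 (adjusted p = 0.0168).

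The spleen calls depended on scale and on single animals. The median of all genes tested lay at -0.47 in spleen, and haemoglobin (HBA and HBB) took 10.9 to 33.3% of TPM in ET-type and 0.543 to 14.8% in L-type spleens. After median-ratio rescaling, which moved the median of all genes to 0.03, UBS3B alone of the members was called (-1.43 ± 0.31, adjusted p = 0.0396), against 1.1% of all genes called lower. Of all genes 167 were called higher and 5172 lower before rescaling, and 530 and 258 after it. The other 8 then lay between -1.23 (CD3D) and -0.21 (CD3Z). With haemoglobin left out of the total, 4 were called, CD2, CD3D, CD3G and UBS3B, against 7.01% of all genes. With the animal as replicate block in a fit over all 50 libraries only UBS3B was called (adjusted p = 0.00333), against 13.8% of all genes called lower, and CD3E had an adjusted p of 0.143. That fit shares its spread over organs, and without the library labelled kidney of S0235, an alternative chosen after seeing the data, it called all 9, from UBS3B (adjusted p = 0.000495) to CD3Z (adjusted p = 0.0459), against 20.3% of all genes.

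Single animals moved the number of spleen calls as well. Without L-type S0385 no member was called by limma, against 0.214% of all genes, though all 9 had an unadjusted p under 0.05. Without ET-type S0242 there were 5, against 10.4% of all genes. UBS3B alone was called without ET-type S0276 (0.976% of all genes) or S0326 (0.45%), and without L-type S0377 (0.166%) or S0384 (2.9%).

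Markers of other cells in spleen are set beside the 21.5% of all genes called lower there. The lists hold 3 to 7 tested genes each, too few to set a count of calls apart from that share. The calls are from TPM as deposited, and none after rescaling is given here for these lists. All 7 B cell genes lay below 0 and 3 were called lower in ET-type spleens (BLK, CD79A and CD79B), with sums of 44.6 to 121 TPM against 77.6 to 562 TPM. Of 6 genes of NK and cytotoxic cells 1 was called lower (NKG2D), with sums of 82.2 to 192 TPM against 154 to 255 TPM. Of 5 macrophage genes 1 was called lower (C163A), with sums of 576 to 1313 TPM against 1316 to 2465 TPM. Of 4 genes of lymphoid stroma, which here include the lymphocyte homing receptor CCR7, CCR7 was called lower, with sums of 128 to 344 TPM against 122 to 938 TPM. Of 4 endothelial genes none was called, at 35.9 to 73.7 TPM against 58.4 to 96.6 TPM. Of 3 red cell genes HBA was called higher (2.43 ± 0.70, adjusted p = 0.0350), while the 3 spleen markers, at 698 to 1040 TPM against 832 to 1148 TPM, gave no call. Their part in the T cell result was not tested.

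**Figure D5:**
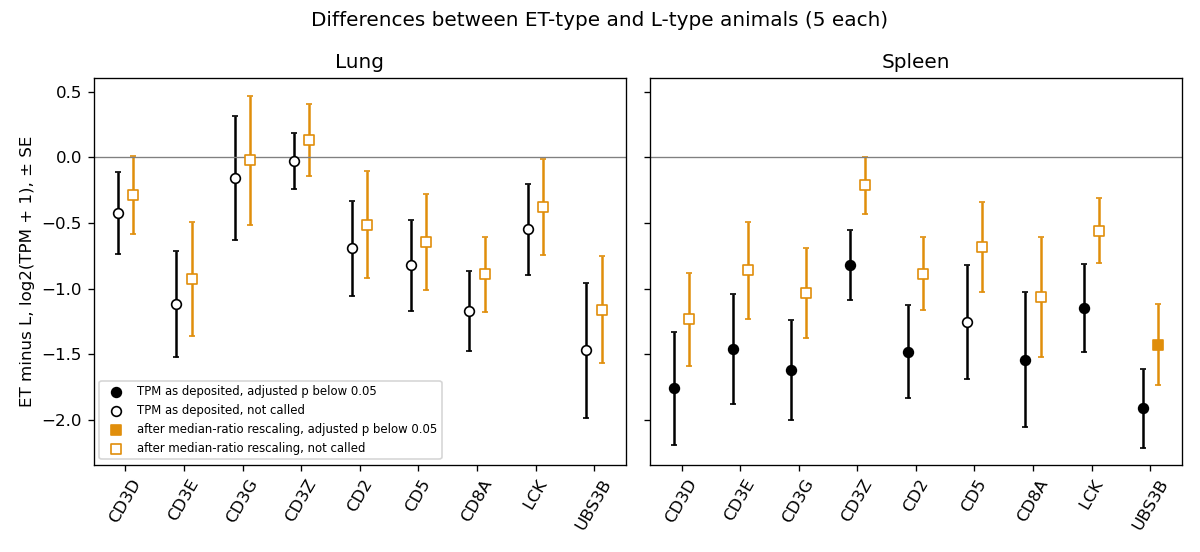
Difference of ET-type minus L-type animals on log2(TPM + 1), with SE, for 9 members in lung and spleen, from TPM as deposited (black circles) and after median-ratio rescaling (orange squares), filled where the adjusted p was below 0.05. In spleen 8 black points are filled and 1 orange point, UBS3B, and no point is filled in lung.

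Other genes of the receptor pathway were lower in ET-type spleens too, as far as TPM was taken as deposited. Of 70 further genes listed for T cell recognition and signalling 64 were measured and 60 tested in spleen. Of these 31 were called lower in ET-type animals and none higher, with a median of -0.89, beside 21.5% of all genes called lower and a median of -0.47. TRAT1, an adaptor that stabilises the receptor complex, was -1.20 ± 0.29 (adjusted p = 0.0275), and LEF1, a transcription factor of naive T cells, was -1.97 ± 0.48 (adjusted p = 0.0275). ZAP70 was -1.36 ± 0.35 (adjusted p = 0.0285) and GRAP2, an adaptor bound to LAT, was -1.15 ± 0.30 (adjusted p = 0.0288). ZAP70 was 4.86 to 11 TPM in ET-type and 10.8 to 36.2 TPM in L-type spleens, with a narrow overlap. The count depended on the scale. It was 7 of 60 with haemoglobin left out, against 7.01% of all genes called lower. After median-ratio rescaling it was none by limma, against 1.1% of all genes. There 25 had an unadjusted p under 0.05, 52 lay below 0 and the median was -0.41. With the animal as replicate block 9 of 57 were called lower, near the share of all genes (13.8%). With the library labelled kidney of S0235 left out as well it was 30 of 49, against 20.3% of all genes.

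In lung no member was called between types by limma, against 0.213% of all genes called, and 4 of 9 had an unadjusted p under 0.05. All 9 were below 0, with a median of -0.69 beside -0.15 for all genes. CD8A was 1.48, 0.676, 0.383, 1.60 and 0.601 TPM in the ET-type lungs of S0235, S0242, S0276, S0309 and S0326. In the L-type lungs of S0349, S0355, S0377, S0384 and S0385 it was 2.44, 1.81, 6.37, 2.79 and 4.11 TPM. These groups did not overlap, which 3.67% of all genes tested in lung did in this direction, and the difference was -1.17 ± 0.30 (adjusted p = 0.119). UBS3B was 0.0961 to 3.82 TPM in ET-type and 2.28 to 19.5 TPM in L-type lungs (-1.47 ± 0.51, adjusted p = 0.201), and with the animal as replicate block it was called (adjusted p = 0.0408), against 1.17% of all genes called lower. With the block and without the library labelled kidney of S0235 both UBS3B (adjusted p = 0.0114) and CD8A (adjusted p = 0.0420) were called, against 2.36% of all genes. CD3E was -1.12 ± 0.40 (adjusted p = 0.213), CD3Z -0.03 ± 0.21 (adjusted p = 0.967) and CD3G -0.16 ± 0.47 (adjusted p = 0.902). The signs of CD3Z and CD3G turned when S0377 or S0276 was left out, that of CD3G also without S0242, and that of CD3Z also without S0326 and after median-ratio rescaling. Summed B cell genes were 15.1 to 33.4 TPM in ET-type and 26.3 to 77.9 TPM in L-type lungs, and summed macrophage genes 51.0 to 213 and 169 to 935 TPM, with no gene of either list called. Of 5 genes of NK and cytotoxic cells tested, NCTR1, an activating receptor of NK cells, was called lower (-1.70 ± 0.28, adjusted p = 0.0450), and the list summed to 29.5 to 135 TPM in ET-type and 54.1 to 181 TPM in L-type lungs. Their part in these values was not tested.

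LAT, the membrane adaptor that ZAP70 phosphorylates, was the pathway gene called in lung, the only call among the 51 tested, against 0.213% of all genes. It had 16.7 to 25.1 TPM in ET-type and 35.5 to 45.7 TPM in L-type lungs (-1.0 ± 0.16, adjusted p = 0.0360). These groups did not overlap, as was so in this direction for 3.67% of all genes tested in lung. The call was lost after median-ratio rescaling (-0.83 ± 0.15, adjusted p = 0.0774). With the animal as replicate block LAT was not called (adjusted p = 0.352). The call was GATA3 (-1.62 ± 0.37, adjusted p = 0.0119), a transcription factor of T cells, against 1.17% of all genes called lower. In spleen LAT was also called lower (-1.16 ± 0.36, adjusted p = 0.0421), where 21.5% of all genes were. CD7, another T and NK cell surface protein, had the next smallest p in lung (-1.60 ± 0.32, adjusted p = 0.0659).

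In heart, kidney and liver no member was called between types by limma. The 3 members tested in heart, CD2 (0.69 ± 0.26, adjusted p = 0.162), CD3G (0.63 ± 0.25, adjusted p = 0.176) and CD3Z (0.54 ± 0.24, adjusted p = 0.211), were all above 0 with an unadjusted p under 0.05. Of the 21014 genes tested, 4670 had an unadjusted p under 0.05, counted in both directions, and 0.0238% were called. Without ET-type S0242, CD2 (adjusted p = 0.0434) and CD3G (adjusted p = 0.0416) were called higher in ET-type hearts, against 6.56% of all genes called higher. CD2 was 2.15, 0.532, 2.69, 0.884 and 2.20 TPM in the ET-type hearts of S0235, S0242, S0276, S0309 and S0326 and 0.398 to 0.948 TPM in L-type hearts. The groups overlapped, as S0242 and S0309 lay within the range of the L type.

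No marker of other cells was called between the hearts, and the sums of some lists overlapped widely while others were set further apart. Summed B cell genes were 5.61 to 10.4 TPM in ET-type and 6.62 to 8.45 TPM in L-type hearts. Genes of NK and cytotoxic cells summed to 6.03 to 47.3 and 5.26 to 30.6 TPM, and macrophage genes to 45.4 to 83.6 and 30.8 to 70.4 TPM. Summed genes of lymphoid stroma were 70.3 to 311 TPM in ET-type and 23.2 to 67.9 TPM in L-type hearts, red cell genes 129 to 1156 and 13.2 to 135 TPM, and endothelial genes 121 to 287 TPM and at most 146 TPM. The heart markers summed to 17414 to 59960 TPM in ET-type and 66973 to 77527 TPM in L-type hearts. Their part in the heart values was not tested.

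In liver 4 members were tested, between -0.23 (LCK) and 0.38 (CD3Z) with adjusted p from 0.923, and 0.00933% of all genes were called. None of the 4 had an unadjusted p under 0.05, and liver CD3Z was 48.6 to 106 TPM in ET-type and 29.0 to 96.2 TPM in L-type animals.

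In kidney all 10 members passed the filter and lay above 0, from 0.06 (UBS3B) to 2.10 (CD3G), with 0.0% of all genes called and no member at an unadjusted p under 0.05. Without the library labelled kidney of S0235 only 7 members passed the filter, between -0.41 (UBS3B) and 0.73 (CD3Z), and none was called, against 0.00376% of all genes. CD3E was then 1.61, 2.22, 4.17 and 12.8 TPM in 4 ET-type kidneys and 1.61 to 4.20 TPM in 5 L-type kidneys. With the animal as replicate block, and that library in, CD3Z was called higher in ET-type kidneys (1.83 ± 0.54, adjusted p = 0.0497), against 0.144% of all genes called higher. Without it the blocked fit called no member, against 0.693% of all genes, with 2 at an unadjusted p under 0.05, and CD3Z was 0.78 ± 0.32 (adjusted p = 0.232).

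Among pathway genes no call was made in heart, kidney or liver, with 23, 61 and 21 tested. The smallest p in heart belonged to IL2RG, the shared chain of several interleukin receptors (0.74 ± 0.24, adjusted p = 0.120), and DGKA, a lipid kinase that dampens the signal (0.50 ± 0.16, adjusted p = 0.127). In kidney they belonged to KSYK, the kinase SYK of B and myeloid cells (1.35 ± 0.63, adjusted p = 0.595), and SIT1 (1.86 ± 0.98, adjusted p = 0.598). In liver they belonged to TCF7, a T cell transcription factor, and MALT1, a signalling protease (-1.25 and 0.53, both with adjusted p = 0.753).

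Over the mean of each animal's 5 organs no member was called between types, against 0.00336% of all genes. UBS3B had the smallest p (-0.75 ± 0.24, adjusted p = 0.215, unadjusted p = 0.00839) and was the only member under 0.05 before adjustment, and CD3E lay at -0.10 ± 0.31. Without the library labelled kidney of S0235 still none was called (0.00673% of all genes), but 4 had an unadjusted p under 0.05. These were UBS3B (-0.84 ± 0.20, adjusted p = 0.149), CD3D (-0.44 ± 0.16, adjusted p = 0.197), CD3E (-0.39 ± 0.16, adjusted p = 0.229) and CD8A (-0.57 ± 0.24, adjusted p = 0.236). The values of CD2, CD3G, CD5 and LCK went from between 0.06 and 0.21 to between -0.19 and -0.09. Of the pathway list GATA3 (-0.62 ± 0.18, adjusted p = 0.210) and DGKZ (-0.34 ± 0.14, adjusted p = 0.264) came first with all libraries.

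The difference between types was then compared across organs by an F test of the interaction. No member was called with all 50 libraries, against 1.81% of all genes, though all 9 had an unadjusted p under 0.05, and UBS3B came nearest (adjusted p = 0.0659). Without the library labelled kidney of S0235 there were 6 called, against 6.1% of all genes. These were CD3D (adjusted p = 0.0186), UBS3B (0.0333), LCK (0.0334), CD3G (0.0349), CD3E (0.0429) and CD5 (0.0472). Leaving out every library of S0235 gave 6 as well (3.92% of all genes), and leaving out S0242 gave 2 (4.17%). With all libraries and the animal as replicate block UBS3B was called (adjusted p = 0.0251), against 5.37% of all genes, and with the block but without the library labelled kidney of S0235 all 9 were, against 13.1%.

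Ratios to CD3E between types gave no call among 45 exact permutation tests, in which 5 against 5 animals allow no p below 0.00794, and 5 had an unadjusted p under 0.05. In lung the ratio of CD3G was higher in ET-type animals by 1.04 on the log2 scale (2-sided exact p = 0.0159, adjusted p = 0.357), and those of CD3Z (1.20), CD3D (0.66) and LCK (0.56) were higher as well, with adjusted p = 0.397 in each of these exact tests. In kidney the ratio of UBS3B was lower in ET-type animals by -2.62 (exact p = 0.0159, adjusted p = 0.357), with the library labelled kidney of S0235 among them. Without it the difference was -1.93 (exact p = 0.0238, adjusted p = 0.357), and 6 of the 45 had an unadjusted p under 0.05, the sixth being CD3D in kidney (-0.79), again with no call.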

How the data were processed

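RNA of 5 organs of 10 minipigs was sequenced as stranded mRNA libraries, per the labels' protocols. The authors deposited TPM per assembled transcript (57085 in 50 libraries), each library summing to a fixed total, so depth is unknown. The submitters' processing notes name Trimmomatic 0.36, Salmon 1.10.0 and the build Sscrofa11.1. Their roles are not given in the sources used here. The deposited annotation gives a Swiss-Prot entry for 63.9% of transcripts, and TPM was summed over each entry.

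Types were compared per organ with limma 3.58.1 (trend, R 4.3.3) on log2(TPM + 1), where the mean TPM reached 1, and fold changes of low genes are understated on that scale. Benjamini-Hochberg adjustment ran over all genes tested, and an adjusted p below 0.05 was called. Organs and the interaction were fitted on all 50 libraries, and the main fit did not use the pairing by animal. Fits were checked on simulated data. Ratios to CD3E were compared by 2-sided exact permutation or sign-flip tests with Python 3.11.15, pandas 2.3.3 and numpy 2.4.6, and figures used matplotlib 3.10.9. Tables were read with the R package data.table (1.17.8).

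Libraries carry animal numbers, which pair organs of the same animal. After group means were removed, same-animal libraries had a mean r of 0.251 over 100 pairs, 96 above 0.1. It was -0.0631 over 400 pairs of different animals of one type, also between organs. Removing group means itself pushes that second value below 0, so it is no independent baseline. No 2 libraries were identical. As an alternative to the main fit, the replicate block was therefore fitted with the animal as a random effect (correlation 0.117). It was also fitted without the kidney library of S0235, an alternative chosen after seeing the data.

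The members, the further pathway genes and the marker lists were chosen with earlier results of these data known. Named are all members, the pathway genes with the smallest p per organ (2 to 4 where any was called, otherwise 2) and the 10 entries most like CD3E. Of the markers KLRD1 and ADGE1, and of the pathway list TCA, TRBC1, TRGC1, CD27, BTLA and FOXP3, had no matching entry. Marker lists of the 5 organs were summed as a check of labels. Genes were placed with the RefSeq table of Sscrofa11.1. Tissues other than these 5 were not analysed here.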

Additional observations from a re-analysis of the deposited data

Results flagged for a closer look

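In 18 of 100 groups of 5 libraries (10 members, 5 organs, 2 types) the highest value stood apart from the other 4, by a gap of more than 0.71 of the group's range. For normal values chance gives such a gap at either end in about 1 in 20 groups. These groups hold TPM of members that share libraries, so that rate does not carry over to them. The library labelled kidney of S0235 accounts for 10 of them, all 10 members among the ET-type kidneys. It had 472 TPM of CD2, 13.8 of CD28, 174 of CD3D, 553 of CD3E, 795 of CD3G, 511 of CD3Z, 257 of CD5, 102 of CD8A, 249 of LCK and 7.54 of UBS3B, where the next ET-type kidney had 1.66 TPM of UBS3B and 37.3 TPM of CD2.

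L-type S0377 accounts for 7. Among the L-type lungs it had 1.04 TPM of CD28, 162 TPM of CD3Z and 12.8 TPM of LCK, where the next lung had 0.411, 85.3 and 7.06 TPM. Among the L-type kidneys it had 4.20 TPM of CD3E, 1.78 TPM of CD8A and 2.79 TPM of LCK, and among the L-type hearts 0.669 TPM of LCK. The remaining group was CD3D in ET-type livers, with 0.594 TPM in S0309 and 0.283 TPM in the next.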

How the results depend on the processing

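The share of all genes called moved with the processing too, so a moved count is not by itself a result about the members. In spleen 8 members were called between types as deposited, against 21.5% of all genes called lower. There were 4 with haemoglobin left out (7.01%), 1 after median-ratio rescaling (1.1%) and 1 with the animal as replicate block (13.8%). Without 1 animal there were 0 to 9. The shares ran from 0.166% to 10.4% for the removals described above, and none is given here for the count of 9. The replicate block also gave 1 in kidney (0.144% of all genes called higher), 1 in lung (1.17% called lower) and 1 in the interaction (5.37%), from 0 each. It moved no other count of calls by over 1.5 times. A further fit used the block and left out the kidney library of S0235, chosen after seeing the data. Its counts were 9 in spleen (20.3% of all genes), 9 in the interaction (13.1%), 2 in lung (2.36%) and 0 in kidney (0.693%). It gave 9 in kidney against lung, for which no share is given here. Leaving out the kidney library of S0235 gave 6 in the interaction (6.1% of all genes), from 0 (1.81%). It gave 9 in kidney against lung (46.3%), from 2 (42.7%), and a mean of at least 5 TPM gave 1 in the latter. Liver against lung had 5 after rescaling, from 8 (68.2% of all genes called lower), and the share after rescaling is not given here. Without 1 animal the counts ran from 0 to 2 in heart, 0 to 6 in the interaction and 52 to 60 for ratios between organs. They ran from 2 to 9 in kidney against lung, 7 to 9 in liver against lung and 6 to 8 in heart against kidney. With all animals 42.7%, 68.2% and 54.8% of all genes were called lower in these pairs of organs.

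Signs were followed for type differences in kidney, lung and spleen, not in heart or liver. Pairs of organs followed were lung minus spleen, kidney minus lung, liver minus lung, kidney minus liver and heart minus liver. Ratios to CD3E were followed in lung minus spleen, and that of CD3Z in liver minus spleen. Among these, signs turned in 21 cases, which leave out the means over 5 organs given in the report. Each was of a value not called before or after, apart from spleen CD3Z. That value was 0.73 with the highest transcript per entry alone, an alternative that takes the backfat or the brain transcript. Lung CD3Z was then 1.15. After rescaling, lung CD3Z was 0.13, kidney minus lung was 0.16 for CD2, 0.064 for CD8A and 0.21 for LCK, liver minus lung was 0.41 for CD3Z and kidney minus liver was -0.0046 for UBS3B. Kidney UBS3B between types was -0.41 with a pseudocount of 0.1 and -0.38 with the block and without that library. Without 1 animal it ran from -0.41 (S0235) to 0.33, lung CD3G from -0.48 to 0.14 (S0377; also above 0 without S0242 and S0276), lung CD3Z from -0.11 to 0.16 (S0377; also above 0 without S0276 and S0326), UBS3B in lung minus spleen from -0.21 to 0.013 (S0377), and UBS3B in heart minus liver from -0.0094 (S0326; also below 0 without S0355) to 0.098. The ratio of LCK in lung minus spleen was -0.11 against the sum of CD3D, CD3E and CD3G. Beyond the constructions named, the cause of these changes was not tested. Depth is unknown, so values near 0 TPM cannot be told from 0.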
